A study of Euphorbia esula with 15 samples.

Results

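The genes described here are the relatives of Short Vegetative Phase (SVP, AT2G22540) and Agamous-like 24 (AGL24, AT4G24540), which include the dormancy associated MADS-box genes, with the flowering-time genes SOC1 (AT2G45660), FT (AT1G65480), TFL1 (AT5G03840), BFT (AT5G62040), MFT (AT1G18100), FD (AT4G35900), AP1 (AT1G69120) and FUL (AT5G60910), in crown buds of leafy spurge (Euphorbia esula). Members are contigs of the assembled transcriptome whose best Arabidopsis hit is 1 of these 10 genes. They number 148 contigs in 90 components, of 569227 contigs in 223732 components in all; a component is the assembler's unit for a gene. Crown buds, the underground adventitious buds of this perennial weed, were sampled from intact paradormant plants (0 h) or once the aerial stem had been cut away at ground level for 6, 24 or 72 h, with 3 libraries at 0 h and 4 at each later time. All plants were of the cultivar labelled 1984-ND001, were raised in a greenhouse with an 18 h photoperiod and stood for 1 week in a growth chamber at 27 °C with a 16 h photoperiod. No group received glyphosate, and buds were harvested around a single clock hour. The replicates are biological ones according to the series, but all plants are of 1 biotype, so the spread between libraries does not cover differences between biotypes.

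SVP and AGL24 are MADS-box transcription factors. In Arabidopsis, SVP represses the florigen gene FT and the floral integrator SOC1, whereas AGL24 promotes flowering, and in peach and other woody perennials their relatives, the DAM genes, are associated with bud dormancy. FT and TFL1 belong to the family of phosphatidylethanolamine-binding proteins and act in opposite directions, FT for flowering and TFL1 against it, both in complexes with the bZIP transcription factor FD. SOC1, AP1 and FUL are MADS-box factors that act downstream in the floral transition and in the identity of the floral meristem.

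Values are normalized counts, that is RSEM expected counts of the member contigs of a component divided by the size factor of the library. Components were tested where the mean exceeded 5 normalized counts at any time point. Library totals ranged from 1847115 to 8766393 expected counts, and the totals of the time points overlapped. Depth was uneven, however: the 24 h libraries held 3750902 to 8766393, and those of 72 h 2165533, 7253556, 2669553 and 1847115. Spearman correlations between replicates were 0.951 to 0.976. The bud label was checked against markers: those of the shoot meristem summed to 818 to 1054 normalized counts per library, although no contig has WUS as its hit, while root markers summed to 0 to 7.8 (no contig hits PLT1 or RHD6) and floral organ identity genes to 4.0 to 13.8. Leaf and photosynthesis markers averaged 2377, 2923, 3572 and 3089 normalized counts at 0, 6, 24 and 72 h. They did not move together: LHCB1.1 averaged 976, 1494, 2457 and 1975, RBCS1A 831, 927, 535 and 591, and AS1 569, 501, 580 and 524, while PSBO1 was at or near 0. Their part in the results was not tested. In bulk buds, fewer cells of a type and less RNA per cell cannot be told apart.

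Of the 90 member components, 69 had no count in any library, 13 had counts but did not pass the mean of 5, and 8 were tested. These 8 held 98.9% of the 15985.69 expected counts on member contigs. For 57 of the 90 components the best hit in the protein database is from an animal, and only 1 of these had counts; 13 of the 33 components with a plant hit were also at 0. Fragments were counted on 1 strand of each contig, so that a count depends on how the contig is oriented, and the match of this setting to the strand-specific kit was not tested. The tested components were 1 SVP relative, 2 SOC1 relatives, 2 FD relatives, 2 MFT relatives and 1 AP1 relative. The threshold lay between the second FD relative, with a highest group mean of 5.11, and an AP1 relative outside it (comp104349_c0), with 4.03. Contig lengths are not used here, so levels are compared between time points and not between genes.

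The contig sequences are not used here. The study designed RT-qPCR primers for the SVP and the AGL24 relative, whose readings were not analysed here, and these are shown in lower case because they are the only sequences used here that the study assigned to these 2 genes. Whether they match the components described was not tested. For SVP the study lists 1 forward and 2 reverse primers without pairing them, and all 3 are given.
SVP forward: acggctaggcaggttactttctca
SVP reverse, first listed: gatggcttttctctgcaacttcct
SVP reverse, second listed: attgcagccattctagccattcc
AGL24 forward: ggtgttttggtgggtcaggag
AGL24 reverse: tttagtcacccacagccttcagag

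**Figure D1:**
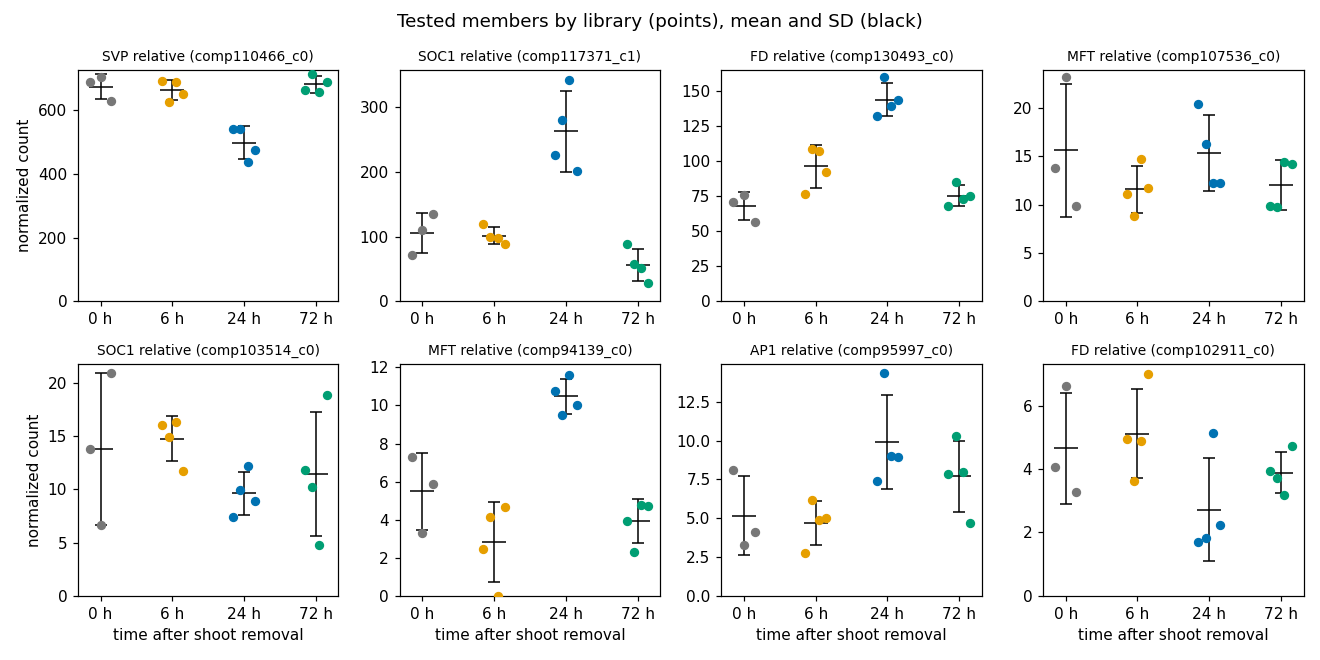
Normalized counts (y axis, each panel with its own scale from 0) of the 8 tested member components at each time after shoot removal (x axis), with a point for each library and the mean and SD in black. The SVP relative is lowest at 24 h, with a mean of 497, while the SOC1 relative comp117371_c1 and the FD relative comp130493_c0 are highest there, with means of 263 and 144.

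The SVP relative (comp110466_c0, a single contig) was lower at 24 h than at every other time. Its normalized counts were 687, 702 and 627 at 0 h. At 6 h they were 691, 624, 685 and 649. At 24 h they were 539, 540, 437 and 473, all below the lowest library of the other time points. At 72 h they were 661, 712, 656 and 688 and overlapped those of 0 h. The fall at 24 h was modest, with a log2 fold change of -0.43 ± 0.08 (SE) against 0 h, or 0.74 times its level (edgeR adjusted p = 3.2e-04). Against 6 h the log2 fold change at 24 h was -0.41 ± 0.08 (edgeR adjusted p = 3.9e-04), and the 72 h libraries were higher than the 24 h ones, with a log2 fold change of 0.45 ± 0.08 (edgeR adjusted p = 9.5e-05). The change was not detected at 6 h (-0.02 ± 0.08, edgeR adjusted p = 0.927) or at 72 h (0.02 ± 0.08, edgeR adjusted p = 0.918) against 0 h. The 3 tested non-member rows most like it over the 15 libraries, among 11300 with an Arabidopsis hit and a mean of at least 50, were comp111216_c1 (histone 4, r = 0.966), comp128706_c0 (malic enzyme, r = 0.96) and comp111611_c1 (serine carboxypeptidase, r = 0.955). These are Pearson correlations of log2(normalized count + 1) over libraries that share time points, given as a description. The histone 4 row averaged 357, 332, 63.4 and 389 normalized counts at 0, 6, 24 and 72 h, so its drop at 24 h, with a log2 fold change of -2.45 against 0 h, was larger.

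The other SVP relatives were close to 0. Component comp111608_c0 averaged 3.12, 0.70, 1.54 and 0.40 normalized counts at 0, 6, 24 and 72 h. Component comp101885_c0, whose best hit is a dormancy associated MADS-box 2 protein, had 27 expected counts spread over 10 libraries, with means of 2.40, 0.41, 1.90 and 0.83. Neither was tested.

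The AGL24 relative is a case where the level of a component is not the level of the gene its name points to. Its 10 contigs, all in comp102355_c0, have a dormancy associated MADS-box protein as best hit, none has a predicted open reading frame, and together they held 1 expected count, in a single library, of 71926009 in all. The component itself held 1698.4 expected counts, of which 99.94% lay on 2 contigs with the hit AT5G16250, a conserved hypothetical protein. Those contigs averaged 83.7, 103, 59.9 and 195 normalized counts at 0, 6, 24 and 72 h. The libraries at 72 h had 175 to 229 normalized counts, against 59.6 to 104 at 0 h, and did not overlap them. The log2 fold change at 72 h against 0 h was 1.26 ± 0.18 (edgeR adjusted p = 1.1e-04), and at 72 h against 24 h it was 1.71 ± 0.16 (edgeR adjusted p = 6.7e-08). A value read for the whole component is thus that of the AT5G16250 contigs. The likeness of other genes to AGL24 was not computed, since it had 1 count.

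**Figure D2:**
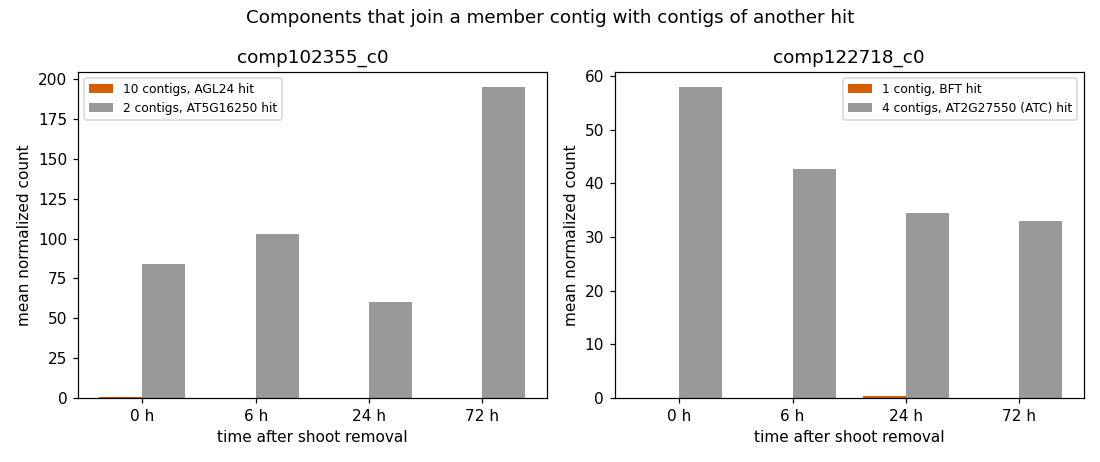
Mean normalized counts (y axis, from 0) at each time after shoot removal (x axis) of the contigs with a member hit (orange) and the contigs with another hit (grey) in comp102355_c0 and comp122718_c0. The orange bars do not exceed 0.28, while the AT5G16250 contigs reach 195 at 72 h and the AT2G27550 contigs 57.9 at 0 h.

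The main SOC1 relative (comp117371_c1) was higher at 24 h and lower at 72 h than at 0 h. SOC1 integrates several flowering pathways in Arabidopsis. Normalized counts were 72.1, 109.7 and 134 at 0 h. At 6 h they were 119.7, 100.1, 97.9 and 88.8. At 24 h they were 226, 281, 342 and 202, above every library of the other times. At 72 h they were 88.3, 58.2, 51.0 and 28.3, below every library at 6 h and overlapping those at 0 h. The log2 fold change was 1.32 ± 0.21 at 24 h against 0 h, or 2.50-fold (edgeR adjusted p = 5.3e-05), and 1.38 ± 0.20 at 24 h against 6 h (edgeR adjusted p = 2.1e-05). The 72 h libraries were lower than the 24 h ones, with a log2 fold change of -2.20 ± 0.22 (edgeR adjusted p = 1.4e-07). The fall below 0 h was less firm, with a log2 fold change of -0.88 ± 0.26 at 72 h against 0 h (edgeR adjusted p = 0.0319). This call was lost without replicate 2 (-0.86, adjusted p = 0.0688) or replicate 3 of 0 h (-0.60, adjusted p = 0.244), and without replicate 2 (-0.89, adjusted p = 0.0938), replicate 3 (-0.83, adjusted p = 0.0789) or replicate 4 of 72 h (-0.74, adjusted p = 0.0803), all by edgeR. At 72 h against 6 h the log2 fold change was -0.82 ± 0.25 (edgeR adjusted p = 0.0267). That call was lost without replicate 1 (-0.74, adjusted p = 0.0774) or replicate 2 of 6 h (-0.83, adjusted p = 0.0578), and without replicate 2 (-0.84, adjusted p = 0.0823), replicate 3 (-0.78, adjusted p = 0.0703) or replicate 4 of 72 h (-0.68, adjusted p = 0.0752), again by edgeR. At 6 h against 0 h no change was detected (-0.06 ± 0.23, edgeR adjusted p = 0.922).

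The SOC1 hit rests on 1 contig of this component, seq16, with 83.3% of its counts. A second contig, seq6, shares its predicted open reading frame and has a MADS-box protein as best hit, but no Arabidopsis hit, and held 16.6%. It averaged 14.5, 18.6, 53.6 and 9.51 normalized counts at 0, 6, 24 and 72 h, and so was also highest at 24 h. The other tested SOC1 relative (comp103514_c0) averaged 13.8 ± 7.16 (SD, n = 3) at 0 h, and 14.8 ± 2.13, 9.62 ± 2.03 and 11.4 ± 5.82 (SD, n = 4 each) at 6, 24 and 72 h. None of its 6 comparisons passed the test, and at 24 h its log2 fold change against 0 h was -0.63 ± 0.34 (edgeR adjusted p = 0.158).

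**Figure D3:**
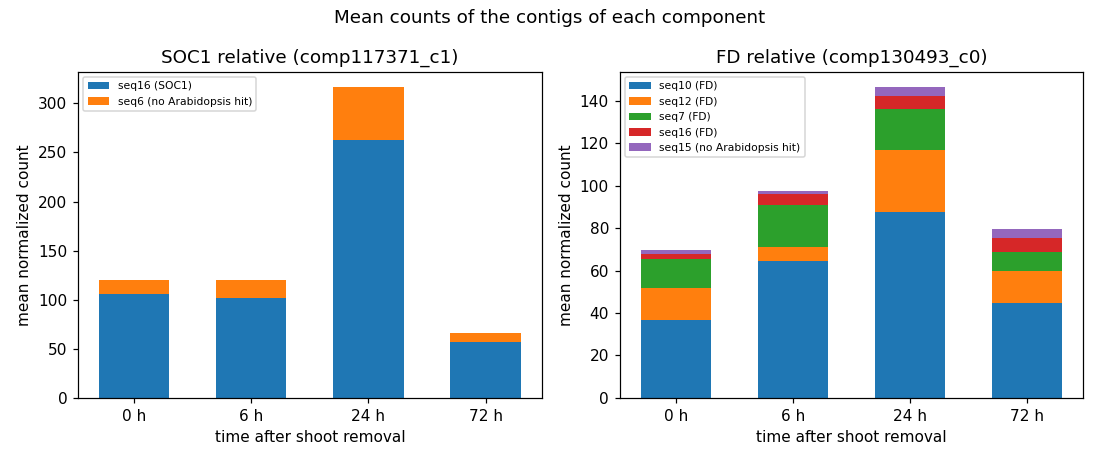
Mean normalized counts (y axis, from 0) of the contigs of the SOC1 relative comp117371_c1 and the FD relative comp130493_c0, stacked, at each time after shoot removal (x axis), for those with the most counts. In the SOC1 relative, seq6 averages 53.6 at 24 h and 14.5 at 0 h, and in the FD relative seq10 averages 87.7 at 24 h and 36.6 at 0 h.

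The main FD relative (comp130493_c0) was already higher at 6 h and highest at 24 h. FD is the bZIP partner through which FT and TFL1 act at the shoot apex. Normalized counts were 71.0, 76.0 and 56.8 at 0 h. At 6 h they were 76.8, 109, 108 and 92.1, all above those of 0 h. At 24 h they were 133, 160.2, 139.6 and 144, above every library of the other times. At 72 h they were 68.0, 85.5, 73.4 and 75.2 and overlapped those of 0 h. The log2 fold change at 6 h against 0 h was 0.54 ± 0.14 (edgeR adjusted p = 0.0165), a call lost without replicate 3 of 0 h (0.41, adjusted p = 0.133) or replicate 2 of 6 h (0.45, adjusted p = 0.0849). At 24 h it was 1.11 ± 0.14 against 0 h, or 2.16-fold (edgeR adjusted p = 2.4e-06), and 0.57 ± 0.12 against 6 h (edgeR adjusted p = 0.0011). The 72 h libraries were lower than the 24 h ones, with a log2 fold change of -0.90 ± 0.13 (edgeR adjusted p = 1.2e-05), and at 72 h against 0 h the value was 0.22 ± 0.15 (edgeR adjusted p = 0.438). Its 6 member contigs share reads, since RSEM divides a read among similar contigs, so the sum is more certain than each contig. The largest, seq10, with 58.1% of the component, averaged 36.6, 64.7, 87.7 and 44.5 normalized counts at 0, 6, 24 and 72 h.

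The second FD relative (comp102911_c0) averaged 4.65 ± 1.76 (SD, n = 3) at 0 h, and 5.11 ± 1.41, 2.72 ± 1.63 and 3.89 ± 0.63 (SD, n = 4 each) at 6, 24 and 72 h. Its log2 fold change at 24 h against 0 h was -0.65 ± 0.51 (edgeR adjusted p = 0.339), and no other comparison passed either.

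Of the members FT, TFL1, BFT and MFT, only MFT had tested components, of which there were 2; the TFL1 relative ATC, which is not a member, was also tested and is described with BFT. MFT is known in Arabidopsis for its role in seed germination. The lower of the 2 (comp94139_c0) had 7.29, 3.31 and 5.89 normalized counts at 0 h. At 6 h it had 2.47, 4.13, 0 and 4.67, and at 24 h 10.8, 9.48, 11.6 and 10.04. At 72 h it had 3.93, 2.28, 4.78 and 4.72. The 24 h libraries lay above all others. The log2 fold change was 1.67 ± 0.42 at 24 h against 6 h (edgeR adjusted p = 0.00478) and -1.57 ± 0.45 at 72 h against 24 h (edgeR adjusted p = 0.0088), of which the second was lost without replicate 2 of 72 h (-1.20, adjusted p = 0.0837). Against 0 h the value at 24 h was 0.83 ± 0.41 and did not pass (edgeR adjusted p = 0.119). The other MFT relative (comp107536_c0) averaged 15.6 ± 6.87 (SD, n = 3) at 0 h, and 11.6 ± 2.43, 15.3 ± 3.90 and 12.0 ± 2.60 (SD, n = 4 each) at 6, 24 and 72 h, and no comparison passed. The remaining MFT relative with counts, comp122958_c0, averaged 2.29 to 3.61 and was not tested.

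FT, the florigen, had 8 expected counts in 7 libraries over its 8 components. BFT, a relative of TFL1 that represses flowering in Arabidopsis, had 9 counts in 6 libraries over 20 components, 7 of the counts on a component with an animal best hit. All 13 components with TFL1 as the Arabidopsis hit have an animal best hit and had no count, which sets no limit on a plant TFL1 transcript. The single FUL component also had no count. For the 1 contig of that component (best hit PnSAH2, E value 1e-12) this allows up to 0.0417 CPM (3 counts of the 71926009 in all libraries pooled). The limit is for counting error only and not for any single time point. It is not a limit on FUL transcripts, which may be counted on other contigs. For contigs counted on 1 strand, a lack of counts does not show that the transcripts were absent. The BFT contig of comp122718_c0 had 2 counts, while 99.72% of that component lay on 4 contigs with the hit AT2G27550 (ATC, a close relative of TFL1, best hit terminal flower 1). These ATC contigs averaged 57.9 ± 6.65 (SD, n = 3) at 0 h, and 42.6 ± 11.9, 34.4 ± 7.58 and 33.0 ± 6.26 (SD, n = 4 each) at 6, 24 and 72 h. They were lower at 24 h than at 0 h, with a log2 fold change of -0.74 ± 0.20 (edgeR adjusted p = 0.00549), and lower at 72 h, with -0.75 ± 0.22 (edgeR adjusted p = 0.0303). Libraries at 24 h and 72 h, with highest values of 43.4 and 41.1, did not overlap those at 0 h, with a lowest value of 53.1.

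The AP1 relative (comp95997_c0) was low throughout. AP1 sets the identity of the floral meristem in Arabidopsis. It had 8.10, 3.31 and 4.12 normalized counts at 0 h. At 6 h it had 2.79, 6.20, 4.89 and 4.99, at 24 h 7.38, 14.3, 9.01 and 8.92, and at 72 h 7.85, 10.3, 7.97 and 4.72. The 24 h libraries lay above those at 6 h and overlapped those at 0 h and 72 h. At 24 h against 6 h the log2 fold change was 1.05 ± 0.38 (edgeR adjusted p = 0.0407). It did not pass with DESeq2 (adjusted p = 0.13), limma (adjusted p = 0.0592) or no filter (edgeR adjusted p = 0.134), nor by edgeR without replicate 1 (adjusted p = 0.109), 3 (adjusted p = 0.0654) or 4 of 6 h (adjusted p = 0.0806) or replicate 2 (adjusted p = 0.171) or 3 of 24 h (adjusted p = 0.0529). At 24 h against 0 h it was 0.92 ± 0.40 (edgeR adjusted p = 0.0791), which passed without replicate 1 of 0 h (1.42, adjusted p = 0.0344). The hits of its contigs to AP1 are weak, and 1 contig of the component, with no count, has a FRUITFULL-like best hit, so its place within the AP1 and FUL group is uncertain. Another AP1 relative, comp104349_c0, has a stronger hit to AP1 (best E value 2e-81, against 1e-14). It averaged 1.26, 4.03, 1.62 and 2.63 normalized counts at 0, 6, 24 and 72 h and was not tested. Its mean was highest at 6 h, with libraries of 3.50 to 4.89. Its highest library was at 72 h, where values ran from 0 to 5.89, so no peak time is read from these low counts.

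**Figure D4:**
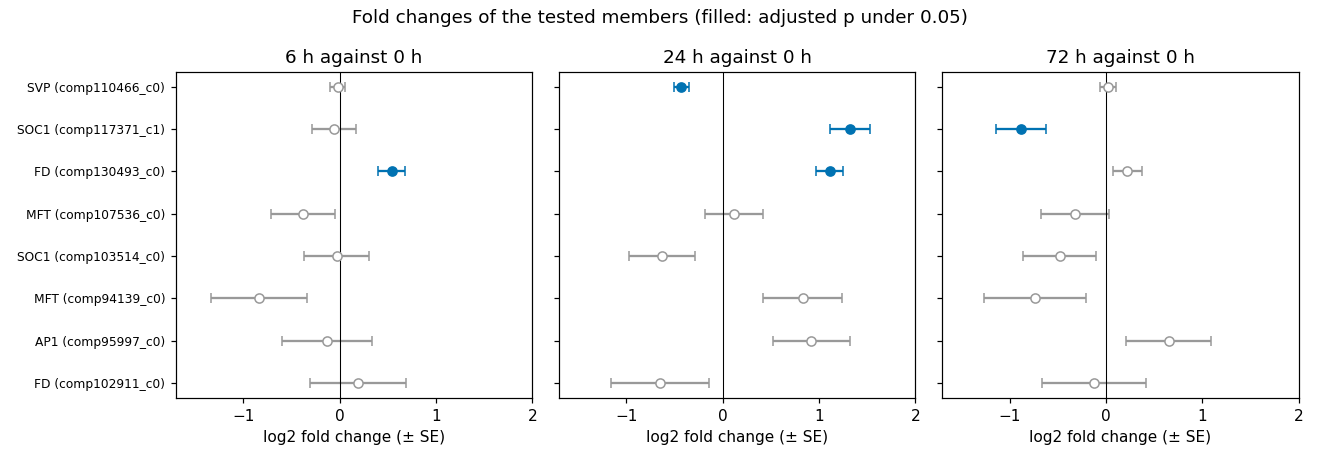
Log2 fold changes (x axis, with SE) of the 8 tested members (rows) at 6, 24 and 72 h against 0 h, which share the 0 h libraries; filled points passed the test. At 24 h the SOC1 relative (1.32), the FD relative (1.11) and the SVP relative (-0.43) pass, at 6 h the FD relative (0.54) and at 72 h the SOC1 relative (-0.88).

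Counted over the 8 tested members, 1 was called at 6 h against 0 h, where 12.3% of the 27029 rows tested were called; a row is the sum of the contigs of a component with the same Arabidopsis hit. At 24 h against 0 h, 3 were called, 2 higher and 1 lower, against 36.2% of all rows, 17.4% higher and 18.8% lower, and at 72 h against 0 h 1 was called, against 10.4%. Of the comparisons between later times, 5 members were called at 24 h against 6 h (28.6% of all rows), 4 at 72 h against 24 h (37.1%) and 1 at 72 h against 6 h (15.4%). Over all 4 time points 4 members differed, against 46.7% of rows. Against 0 h these shares lie near the background, and with 8 members no more is read from the counts. The median log2 fold change of the members was -0.04, 0.47 and -0.22 at 6, 24 and 72 h against 0 h, beside 0.00, 0.03 and 0.03 over all rows. Ranges of 4 members did not overlap between 24 h and 0 h, where this held for 40.4% of rows, against 1 member (22.9% of rows) between 6 h and 0 h and 0 members (20.5% of rows) between 72 h and 0 h. The ranges of 5 members did not overlap between 24 h and 6 h (28.1% of rows), of 4 between 72 h and 24 h (34.4%) and of 1 between 72 h and 6 h (19.5%).

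Other genes of the flowering pathways were taken from 6 lists. In the list of photoperiod inputs to FT, 10 of 15 genes were tested, in 11 rows. Of these rows 3 were higher and 0 lower at 6 h against 0 h, 6 higher and 0 lower at 24 h, and 1 higher and 2 lower at 72 h, with median log2 fold changes of 0.27, 0.35 and -0.20. Over all rows 12.3%, 36.2% (17.4% higher and 18.8% lower) and 10.4% were called at these times, with medians of 0.00, 0.03 and 0.03. At 72 h against 24 h 7 were lower and 0 higher, where 37.1% of all rows were called. The CYCLING DOF FACTOR relative CDF2 (comp126528_c0), a repressor of CONSTANS in Arabidopsis, averaged 353, 346, 450.5 and 279.9 normalized counts at 0, 6, 24 and 72 h. It was higher at 24 h than at 0 h, with a log2 fold change of 0.35 ± 0.08 (edgeR adjusted p = 0.00176), and lower at 72 h, with -0.33 ± 0.09 (edgeR adjusted p = 0.0152). The CONSTANS-like relative COL9 (comp121761_c1) averaged 183, 294, 274 and 185. It was higher at 6 h than at 0 h, with a log2 fold change of 0.69 ± 0.12 (edgeR adjusted p = 4.3e-04), and also at 24 h, with 0.58 ± 0.12 (edgeR adjusted p = 5.2e-04). CDF3 (comp119873_c0) averaged 98.1, 132, 169 and 74.6.

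Among the FLC clade and autonomous pathway, 10 of 15 genes were tested, in 13 rows, of which 0 were higher and 1 lower at 6 h against 0 h, 2 higher and 4 lower at 24 h, and 0 either way at 72 h (median log2 fold changes -0.11, -0.25 and -0.05, beside 0.00, 0.03 and 0.03 over all rows). The called rows, 1, 6 and 0 of 13, stand beside 12.3%, 36.2% and 10.4% of all rows. FLM (comp113091_c0, best hit flowering locus C), a MADS-box partner of SVP in repressing flowering in Arabidopsis, averaged 187 ± 35.8 (SD, n = 3) at 0 h, and 211 ± 30.5, 381 ± 35.5 and 171 ± 12.8 (SD, n = 4 each) at 6, 24 and 72 h. Its log2 fold change at 24 h against 0 h was 1.01 ± 0.12 (edgeR adjusted p = 1.8e-06). This row was higher at 24 h, where the SVP relative was lower, and a link between them was not tested. FVE, an autonomous pathway gene, averaged 814, 627, 465 and 783 in comp107794_c0, with a log2 fold change of -0.81 ± 0.08 at 24 h against 0 h (edgeR adjusted p = 8.8e-08). A second FVE row, comp113835_c0, was also lower at 24 h, with -1.09 ± 0.15 (edgeR adjusted p = 7.2e-06).

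In the age pathway 12 of 23 genes were tested, in 19 rows, with 5 higher and 1 lower at 6 h against 0 h, 6 higher and 3 lower at 24 h, and 2 higher and 6 lower at 72 h (median log2 fold changes -0.03, 0.02 and -0.37, beside 0.00, 0.03 and 0.03 over all rows). The called rows, 6, 9 and 8 of 19, stand beside 12.3%, 36.2% and 10.4% of all rows. SPL5 (comp110883_c0), an SPL factor of the phase change in Arabidopsis, averaged 317, 292, 404 and 233 normalized counts at 0, 6, 24 and 72 h, with log2 fold changes of 0.36 ± 0.10 at 24 h (edgeR adjusted p = 0.00816) and -0.45 ± 0.11 at 72 h (edgeR adjusted p = 0.0103) against 0 h. AP2 (comp95427_c0) was higher than at 0 h at all 3 later times, with means of 168, 172 and 154 at 6, 24 and 72 h, against 100.05 at 0 h, and a log2 fold change of 0.75 ± 0.12 at 6 h (edgeR adjusted p = 1.7e-04). SPL6 (comp107539_c0) averaged 193, 275, 341 and 227.

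Of 12 other MADS-box genes of the same class, 5 were tested, in 6 rows, and at 24 h against 0 h 1 was higher (36.2% of all rows were called): ANR1 (comp138303_c0), a root nitrate response gene in Arabidopsis, with a log2 fold change of 0.55 ± 0.18 (edgeR adjusted p = 0.0207). At 72 h, where 10.4% of all rows were called, 1 was lower, AGL19 (comp132989_c0), a close relative of SOC1, with a log2 fold change of -0.78 ± 0.17 (edgeR adjusted p = 0.00491) and means of 143, 101, 109 and 81.2 at 0, 6, 24 and 72 h. Of 14 floral meristem and organ identity genes only AP3 (comp109076_c0) was tested, with means of 8.16, 6.10, 5.30 and 8.28, and no comparison passed. Of the 4 genes that complete the FT and TFL1 family and its partners, ATC (above) and FTIP1, which helps FT move out of companion cells in Arabidopsis, were tested, and neither FTIP1 row passed in any comparison.

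**Figure D5:**
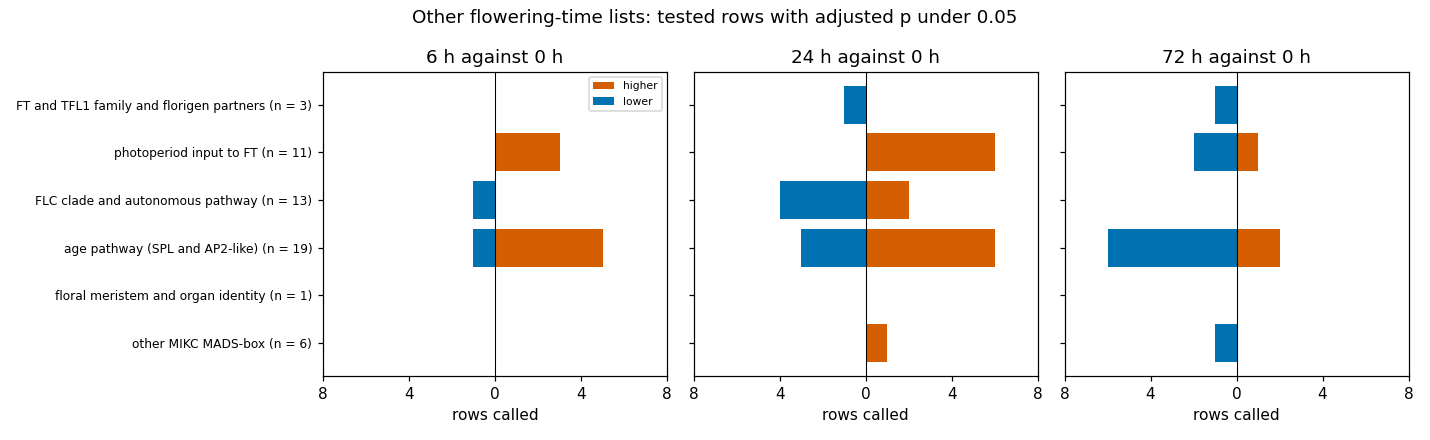
Number of tested rows called higher (orange, right) or lower (blue, left) at 6, 24 and 72 h against 0 h (x axis) in the 6 lists of other flowering-time genes (rows, with the number of rows tested). In the list of photoperiod inputs 6 of 11 rows are higher at 24 h and 0 lower, and in the age pathway 6 of 19 are lower at 72 h.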

How the data were processed

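The 15 poly A+ RNA libraries were grouped by the time in their titles. The authors trimmed the reads, built a de novo assembly that also drew on further reads of the species, annotated the contigs by BLASTX and counted fragments with RSEM (their command file installs version 1.2.11); the deposited table gives expected counts, before normalization, per contig and component. The columns of the authors' EBSeq probabilities were not used. Expected counts of contigs with the same Arabidopsis hit were summed within a component. Each sum was scaled by a median-of-ratios factor from the component counts for display and for the filter. The same factors set the library sizes in the edgeR test. Rows with a mean above 5 at any time point were rounded and tested with edgeR 4.0.16 in R 4.3.3 (quasi-likelihood, all 15 libraries, 4 groups, Benjamini-Hochberg over all rows, threshold 0.05). The SE is the log2 fold change divided by the square root of F. The procedure was also run on simulated counts, for 24 h against 0 h only, with no outcome given here. Their spread was taken from these data, and their changes were larger than that of the SVP relative, so smaller changes were not covered. Alternatives used DESeq2 1.42.0, limma 3.58.1 (pseudocount 1), TMM, other filters, other sums, a replicate block and each library left out. Contigs without an Arabidopsis hit held 7.8% of counts.

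The members and lists were chosen with earlier results of these data known. Every tested member component is named, those called are given by library, and from each list the rows with the smallest overall p are named, at most 3. The rows most like the SVP relative are the 3 with the highest Pearson correlation. Python 3.11.15 with numpy 2.4.6, pandas 2.3.3 and matplotlib 3.10.9 was used.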

Additional observations from a re-analysis of the deposited data

Results flagged for a closer look

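In the second FD relative (comp102911_c0) at 24 h, replicate 3 had 5.15 normalized counts, far from the other 3 libraries of that time at 1.70 to 2.23. It was the single such case among 24 sets of 4 libraries, and chance alone marks about 1 set in 20.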

How the results depend on the processing

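Over the 16 fold changes of the 8 tested members that were called under at least 1 setting, 372 of 394 values under the alternatives kept their direction and their side of the threshold, 21 lost the call, 1 gained it and 0 reversed. The SVP, SOC1 (comp117371_c1) and FD (comp130493_c0) relatives kept their calls at 24 h against 0 h in all 25 alternatives, with log2 fold changes of -0.48 to -0.37, 1.09 to 1.60 and 0.98 to 1.24. Some alternatives had little or no room to change a result. Summing per Arabidopsis hit gave these relatives the same values as the main test. Leaving out a 6 h or 72 h library left their log2 fold changes at 24 h against 0 h unchanged. The tallies are therefore not counts of independent checks. Counting component totals gave 5 called at 24 h against 0 h, 3 at 72 h against 0 h and 2 at 72 h against 6 h. This is because comp102355_c0 and comp122718_c0 then carry the counts of their other contigs. Of all 23247 components tested in this way, 9719, 3059 and 4328 were called. More than 8 members were then tested, so these counts are not set against those above. A minimum of 10 in every library of a time point left 3 called at 24 h against 6 h, since fewer components were tested. Over all rows 7588 of 20060 were then called. With each library left out in turn, the number called ranged from 0 to 1 at 6 h against 0 h, 3 to 4 at 24 h against 0 h, 0 to 1 at 72 h against 0 h, 4 to 5 at 24 h against 6 h, 3 to 4 at 72 h against 24 h, 0 to 1 at 72 h against 6 h and 4 to 5 over all times. These runs tested 27020 to 27251 rows in all. In the same order, 2281 to 3391, 8186 to 9817, 1815 to 2938, 6289 to 7876, 8439 to 10103 and 2954 to 4340 of them were called. Over all times it was 11583 to 12357. Over all rows, 2820 were called at 72 h against 0 h, but 1815 without replicate 3 of 0 h and 1847 without replicate 2 of 72 h. With a limit of an E value of 1e-20 the AP1 relative could not be tested.

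The replicate numbers were not taken to pair the samples. Only 1 of 21 same-numbered pairs correlated above 0.1 (-0.023 to 0.128), but their median of 0.035 exceeded that of the other pairs, -0.009. In addition, 11 of 15 libraries correlated best with their own number. Libraries of the same number were thus slightly more alike, and this link was not tested. With the replicate block, 1, 3, 1, 5, 4 and 1 members were called in the comparisons in the order above. Over all times it was 4, as without it, and no call changed. Of all 27029 rows 3824, 10174, 2959, 8004, 10203 and 4595 were called with the block, and 12921 over all times. The SOC1 relative then had 1.43 and the SVP relative -0.42 at 24 h against 0 h.

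Counts below about 10 per library, as in the MFT, AP1 and second FD relatives, limit the precision, and the strand setting limits what a count of 0 shows.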
